A study of Homo sapiens with 4 samples.

Results

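Growth factor receptors that drive or mature sympathetic neuroblasts were followed in the human neuroblastoma cell line SH-SY5Y. The set comprised 9 genes, found by their symbols among the 58243 genes of each table: ALK, RET, NTRK2, NTRK3, KIT and IGF1R, which encode receptor tyrosine kinases, NGFR, which encodes the p75 neurotrophin receptor, and GFRA2 and GFRA3, which encode co-receptors of RET. Untreated cells gave the 2 control libraries, and the SNP group was 2 libraries of cells exposed for 8 h to sodium nitroprusside (SNP), which releases nitric oxide. The labels state no dose for the sequenced libraries and call the RNA of the SNP group oxidized. The labels' treatment text describes cells differentiated with retinoic acid, which would apply to both groups, while their culture text names serum-containing medium without it. The labels speak of replicate treatments within a single experiment and not of separate cultures behind libraries a and b, so the p-values measure the spread between these libraries, which may be technical.

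Receptor tyrosine kinases span the plasma membrane and, once a ligand brings them together, phosphorylate themselves and recruit adaptor proteins that lead to the RAS and PI3 kinase pathways. RET binds ligands of the GDNF family only together with a GFRA co-receptor, GFRA2 being the preferred partner for neurturin and GFRA3 for artemin. TrkB, encoded by NTRK2, binds BDNF, and TrkC, encoded by NTRK3, binds neurotrophin-3, while p75 binds all neurotrophins without a kinase of its own. ALK is a driver of neuroblastoma, and SH-SY5Y cells are known to carry an activating ALK mutation. In sympathetic neuroblasts RET and the Trk receptors are linked to survival and maturation.

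The summed gene counts ranged from 5613144 to 8056550 per library. A gene with no reads could still have a true level of up to 3 counts, a floor of 0.372 to 0.534 CPM (counts scaled to a common library size) that covers counting error only. Of 12 sympathetic neuroblast markers, HAND2 and DBH among them, 11 were counted well enough to test, and TH, the gene of tyrosine hydroxylase, was at 0 counts in all 4 libraries. The summed level of this list was 4074 to 4100 CPM in control and 3224 to 3325 CPM in SNP libraries, with 6 of the 11 tested genes lower and 2 higher in SNP, where 26.2% of all genes tested differed in either direction. Schwann or glial markers summed to between 1.64 and 3.37 CPM, with 4 of 8 at 0 in all libraries, and blood markers to between 1.13 and 2.46 CPM, with 4 of 6 at 0. The mesenchymal or fibroblast list summed to 443 to 489 CPM in control and 403 to 411 CPM in SNP libraries, with 2 of 8 tested genes lower and 1 higher. Its members were uneven, with VIM at 128 to 215 CPM and TWIST1 at 137 to 156 CPM. In the same list, 5 of 12 genes, COL1A1 and YAP1 among them, stayed under 2 CPM in all libraries. Among 10 genes responsive to retinoic acid, a list that includes RET and NTRK2 of the receptor set, 8 were tested. CYP26A1 was at 0 in every library and RARB had 17 to 28 counts. RET was the 1 of the 8 that differed, beside 26.2% of all genes tested, and is the same result as reported below. The part of these shifts in the receptor results was not tested.

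RET and ALK were the most abundant receptor transcripts per length, and KIT was close to absent. On the deposited TPM scale (a level corrected for gene length), RET lay between 258 and 334 and ALK between 179 and 289 over the 4 libraries. RET was above ALK within each of the 4 libraries, although the ranges of the genes overlapped. IGF1R followed at 66.2 to 78.2 TPM and GFRA2 at 22.3 to 34.4 TPM, each range apart from its neighbours. NGFR, at 5.71 to 10.2 TPM, and GFRA3, at 5.86 to 7.86 TPM, were not separable, since NGFR was the higher in 3 of the 4 libraries. NTRK2 lay at 3.42 to 5.53 TPM and NTRK3 at 1.29 to 2.28 TPM, and the lowest NTRK3 value nearly met the highest KIT value. The Trk receptor genes have long annotated exon sums, 20363 bases for NTRK2 and 26750 bases for NTRK3, over which the reads were averaged. KIT, the receptor of stem cell factor, had the lowest level at 0.339 to 1.29 TPM. The TPM of IGF1R rests on a gene length of about 13512 bases implied by the deposited values, against 13941 annotated exonic bases. For the other 8 genes the implied length matched the annotation within 1%.

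**Figure D1:**
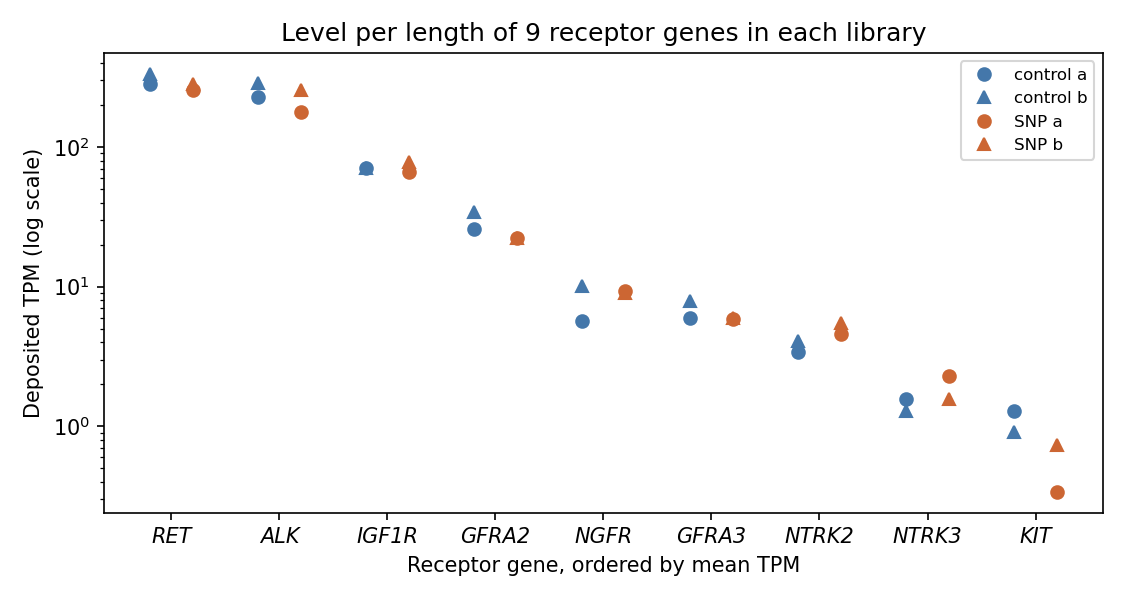
Deposited TPM (log axis) of the 9 receptor genes, ordered by mean level, with 1 point per library (circles replicate a, triangles replicate b). RET and ALK sit between 179 and 334 TPM in all libraries, and KIT at no more than 1.29 TPM.

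After SNP, 3 of the 9 receptor transcripts fell, namely ALK, RET and the RET co-receptor GFRA2. None rose, 5 were tested and did not pass, and KIT was too weakly counted to be tested. Over the 14759 genes tested, 26.2% passed the threshold of 0.05 (edgeR quasi-likelihood, Benjamini-Hochberg adjusted p), 12.6% with SNP lower and 13.6% with SNP higher. With 8 receptors tested, the count of 3 is not read as particular to these genes. In RNA from whole cultures, fewer cells of a type and less RNA per cell cannot be told apart.

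ALK (ENSG00000171094; chromosome 2, 29192774 to 29921566, minus strand; all positions are those of GENCODE 29 on GRCh38) has 34 merged exons, none shared with another gene. Control a held 2355 ALK counts and control b 2521, while SNP a held 2093 and SNP b 2763. Scaled for library size, the control values were 363 and 448 CPM and the SNP values 263 and 358 CPM. Both SNP values lay below both control values, but SNP b was close to control a. The mean of the controls was 405 ± 59.7 CPM (SD, n = 2), that of SNP 311 ± 67.0 CPM (SD, n = 2). ALK fell by 23.3%, a log2 fold change of -0.38 (SE 0.122) with an adjusted p-value of 0.0242 (edgeR quasi-likelihood, Benjamini-Hochberg). The call was lost with DESeq2's Wald test (adjusted p = 0.340, 18.9% of all genes called) and with library totals taken from RPKM (0.15, 22.4% called). It was also lost without control b (15.8% called) or without SNP a (20.4% called). The log2 fold change was -0.22 without control b, -0.18 without SNP a and -0.62 without SNP b.

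RET (ENSG00000165731; chromosome 10, 43077027 to 43130351, plus strand) has 20 merged exons without exonic overlap. The controls held 2739 and 2740 RET counts, and the SNP libraries, which were larger, held 2831 and 2863. After scaling, RET stood at 422 and 486 CPM in the controls, against 356 and 371 CPM with SNP. The SNP replicates were close together and both below the control values. RET fell by 19.9%, with a log2 fold change of -0.32 (SE 0.0947) and an adjusted p-value of 0.0156 (edgeR quasi-likelihood, Benjamini-Hochberg). It was the 1 receptor that also passed with DESeq2's Wald test, at an adjusted p-value of 0.0193. The RET call was lost with library totals taken from RPKM (adjusted p = 0.278, edgeR), without control b (0.277) and without SNP a (0.0536).

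GFRA2 (ENSG00000168546; chromosome 8, 21690403 to 21812357, minus strand) has 14 merged exons and no exonic overlap. Its reads numbered 206 and 233 in the controls and 204 and 188 with SNP. Scaled, the controls stood at 31.8 and 41.4 CPM, the SNP libraries at 25.7 and 24.4 CPM. The groups did not overlap, and the control replicates were further apart than the SNP replicates. GFRA2 had the steepest estimated fall of the 3, by 31.3%, at a log2 fold change of -0.54 (SE 0.163) and an adjusted p-value of 0.0173 (edgeR quasi-likelihood, Benjamini-Hochberg). The differences in slope between GFRA2, RET and ALK were not tested. The GFRA2 call was lost in DESeq2's Wald test (adjusted p = 0.0709) and without control b, where its log2 fold change was -0.34.

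GFRA3 (ENSG00000146013; chromosome 5, 138252379 to 138274671, minus strand), the artemin co-receptor, had 17 and 19 counts in the controls, and 19 and 18 with SNP. The controls at 2.62 and 3.37 CPM did not overlap the SNP values of 2.39 and 2.33 CPM. The estimate was wide, a log2 fold change of -0.33 (SE 0.441) that did not pass (adjusted p = 0.621, edgeR, Benjamini-Hochberg).

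IGF1R (ENSG00000140443; chromosome 15, 98648539 to 98964530, plus strand), the receptor of insulin-like growth factors, was the third best counted receptor. The controls held 1331 and 1134 counts (205 and 201 CPM), the SNP libraries 1422 and 1559 (179 and 202 CPM). The groups overlapped. Its log2 fold change of -0.09 (SE 0.10) had an adjusted p of 0.531 (edgeR, Benjamini-Hochberg).

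**Figure D2:**
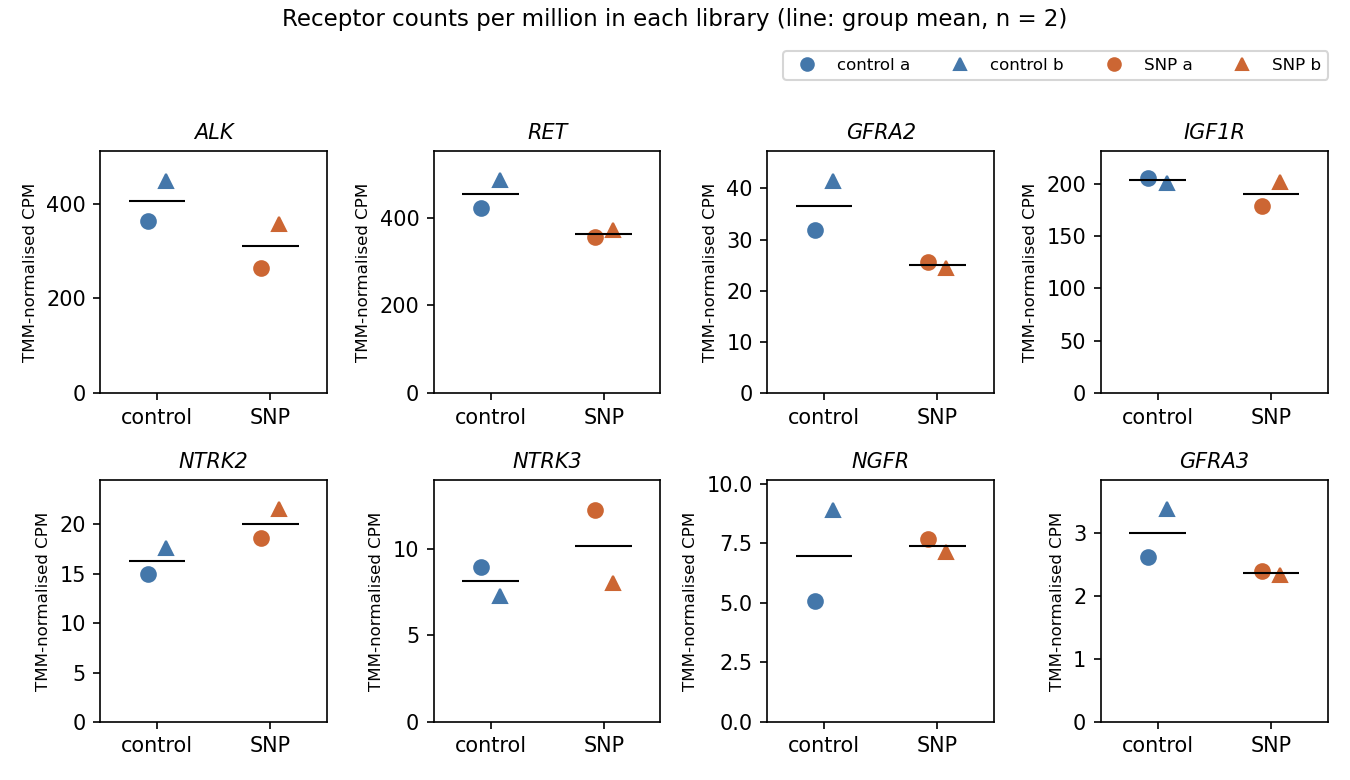
TMM-normalised CPM of the 8 tested receptors in each library (axes from 0; circles replicate a, triangles replicate b, lines the group means of 2 libraries). ALK, RET and GFRA2 are lower in both SNP libraries, while the groups of IGF1R, NTRK3 and NGFR overlap.

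The neurotrophin receptors did not pass the test. NTRK2 (ENSG00000148053; chromosome 9, 84668551 to 85027070, plus strand) held 97 and 99 counts without SNP, and 148 and 166 with it. The controls stood at 14.96 and 17.6 CPM, below the SNP values of 18.6 and 21.5 CPM. The log2 fold change of 0.31 (SE 0.19) had an adjusted p of 0.251 (edgeR, Benjamini-Hochberg). NTRK2 has 8 annotated coding transcripts and NTRK3 has 14. Both genes are known to give full-length receptors and truncated ones without a kinase, which the gene counts do not separate.

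NTRK3 (ENSG00000140538; chromosome 15, 87859751 to 88256768, minus strand) held 58 and 41 counts without SNP, and 97 and 62 with it. Control values of 8.94 and 7.28 CPM overlapped SNP values of 12.2 and 8.04 CPM, with SNP a alone above the other 3. The log2 fold change of 0.32 (SE 0.268; adjusted p = 0.418, edgeR, Benjamini-Hochberg) became -0.02 without SNP a.

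NGFR (ENSG00000064300; chromosome 17, 49495293 to 49515017, plus strand) held 33 and 50 counts without SNP, and 61 and 55 with it. Its control values of 5.09 and 8.88 CPM enclosed the SNP values of 7.68 and 7.13 CPM. The log2 fold change was 0.10 (SE 0.30), the adjusted p-value 0.845 (edgeR, Benjamini-Hochberg), and the value was -0.27 without control a. NGFR shares 924 exonic bases with AC015656.1 and 202 with AC006487.1, so its reads may be divided between genes.

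KIT (ENSG00000157404; chromosome 4, 54657918 to 54740715, plus strand) held 10 and 6 counts without SNP, and 3 and 6 with it. Scaled, the controls stood at 1.54 and 1.07 CPM and the SNP libraries at 0.378 (SNP a) and 0.778 CPM. Both SNP values were lower, but SNP a was at the floor of 3 counts, and KIT did not pass the expression filter.

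Of the 8 tested receptors, 4 had both SNP values below both control values and 1 had both above. Over all genes tested, 64.0% showed groups without overlap, 32.3% with SNP lower and 31.7% with SNP higher. The median log2 fold change of the 8 receptors was -0.21, beside -0.0042 over all genes tested.

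Transcript base composition is given beside these results, and its part in them was not tested. Guanine minus cytosine content, in percentage points over all annotated transcripts, was -0.04 for ALK, -0.78 for RET and -1.55 for GFRA2. Among the genes tested these lie at percentiles 34.4, 25.6 and 18.4. The values were -0.46 for NTRK2, -0.96 for NTRK3, -0.95 for IGF1R, -2.10 for NGFR and -5.75 for GFRA3, all below the median of 1.04 over genes tested. Per-library offsets on guanine minus cytosine content, here called guanine-over-cytosine offsets, were added to those on GC content and length. With them, none of the 8 receptors passed in edgeR's test, where 19.8% of all genes did. The log2 fold changes were then -0.24 for ALK (adjusted p = 0.131), -0.11 for RET (0.317) and -0.27 for GFRA2 (0.222). All 3 kept a negative sign. With the replicate letter as a block beside these offsets, ALK passed (log2 fold change -0.24, adjusted p = 0.0252, edgeR, Benjamini-Hochberg), and RET and GFRA2 did not. IGF1R and GFRA3 turned to 0.09 and 0.26, and NTRK2, NTRK3 and NGFR stood at 0.41, 0.51 and 0.47, none past the threshold. With offsets on length and GC content alone, where 28.4% of all genes passed, ALK, RET and GFRA2 still passed, at adjusted p-values of 0.0359, 0.0241 and 0.0331 (edgeR, Benjamini-Hochberg).

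**Figure D3:**
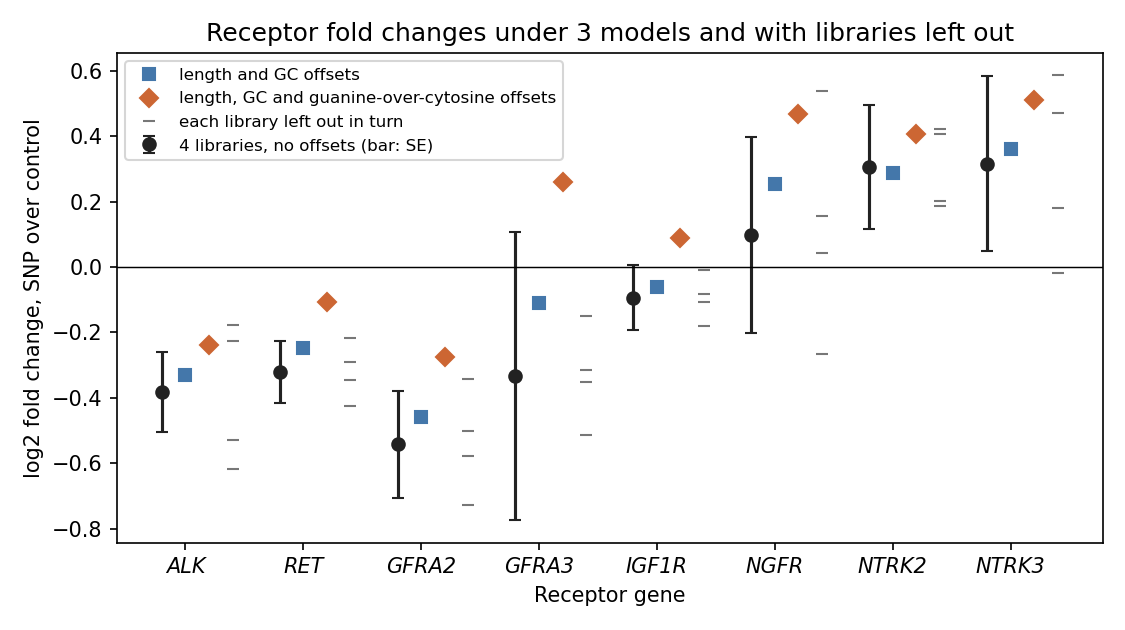
Log2 fold change (SNP over control) of the 8 tested receptors with all 4 libraries and no offsets (black, bars are the SE), with length and GC offsets (blue), with guanine-over-cytosine offsets added (orange), and with each library left out in turn (grey dashes). The values of ALK, RET and GFRA2 stay below 0 throughout, and with the guanine-over-cytosine offsets they are -0.24, -0.11 and -0.27.

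The start regions shown are those of the 3 best counted receptors, chosen with their test results known. ALK and RET have 2 listed windows each, of which 1 is shown, and IGF1R has 1. The windows, from RefSeq on GRCh38.p14, run from 250 bases before to 50 bases after a start site, 5′ to 3′ on the gene's strand. They are chr2:29921537-29921836 for ALK (minus strand), chr10:43076819-43077118 for RET (plus strand) and chr15:98648289-98648588 for IGF1R (plus strand). Capitals mark each match to the GC box GGGCGG on either strand, where matches that overlap run together.
ALK: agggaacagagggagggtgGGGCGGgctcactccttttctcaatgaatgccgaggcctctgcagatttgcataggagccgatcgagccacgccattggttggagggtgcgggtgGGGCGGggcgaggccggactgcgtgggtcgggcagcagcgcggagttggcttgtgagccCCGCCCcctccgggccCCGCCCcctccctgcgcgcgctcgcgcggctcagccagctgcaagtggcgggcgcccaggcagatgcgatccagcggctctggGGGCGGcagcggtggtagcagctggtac
RET: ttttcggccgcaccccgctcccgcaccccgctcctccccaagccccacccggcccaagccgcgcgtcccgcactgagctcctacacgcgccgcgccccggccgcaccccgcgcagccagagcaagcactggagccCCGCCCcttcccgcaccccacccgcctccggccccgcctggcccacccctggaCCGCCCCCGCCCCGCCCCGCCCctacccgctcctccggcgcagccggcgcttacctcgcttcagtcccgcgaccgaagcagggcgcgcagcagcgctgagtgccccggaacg
IGF1R: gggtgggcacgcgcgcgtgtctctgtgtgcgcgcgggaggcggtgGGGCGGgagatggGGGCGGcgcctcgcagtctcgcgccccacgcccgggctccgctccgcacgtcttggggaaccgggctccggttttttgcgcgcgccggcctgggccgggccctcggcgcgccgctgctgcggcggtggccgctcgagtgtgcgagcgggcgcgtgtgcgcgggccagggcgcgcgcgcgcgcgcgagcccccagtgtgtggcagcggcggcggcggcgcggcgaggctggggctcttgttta
The GC box occurred 5 times in the ALK window, 5 times in the RET window and 2 times in the IGF1R window. At least 1 match was present in 45.0% of the 35116 promoter windows of RefSeq, a share that gives no background for the number of matches. The relation of match number to the fold changes was not tested. Of the 9 receptor genes, 7 were searched, which left out NGFR and also GFRA2, a gene that fell. The windows of NTRK2, KIT and GFRA3 held 1 match each and that of NTRK3 held 2. NTRK2 has 4 listed windows, of which 1 was searched, with a start site 755 bases from the gene's annotated 5′ end. Each gene is covered by 1 window, so matches in its other listed windows are not counted. The E box CAGCTG occurred 2 times in the ALK window and in no other of the 7, against 17.9% of all windows with at least 1. The nuclear receptor half-site AGGTCA (13.8% of all windows) and the cyclic AMP response element TGACGTCA (1.85%) matched none of the 7. A match is a run of letters in these windows and no evidence of binding.

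The genes whose 4 library values most resembled those of ALK, by the root mean square distance of centred log2 CPM, were CAMSAP3 (distance 0.0176) and AEBP1 (0.0193). For RET they were STAMBPL1 (0.00596) and PAQR7 (0.00844). The comparison ran over 12125 genes with at least 5 CPM, as a description of 4 libraries.

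Among the lists around the receptors, the largest log2 fold changes were those of 2 ligand genes, GDF15 and KITLG. The ligands as a list were not shifted in this way, with a median log2 fold change of 0.06 among those tested, beside -0.0042 over all genes tested. Of 16 listed ligand genes 9 were tested, 3 rose (KITLG, GDF15 and BDNF), 1 fell (IGF2) and 5 did not pass, beside 13.6% of all genes tested higher and 12.6% lower. KITLG, which encodes stem cell factor, the ligand of KIT, held 90 and 87 counts without SNP, and 496 and 476 with it. Its level rose from 14.7 ± 1.11 to 62.1 ± 0.509 CPM (SD, n = 2 each), a log2 fold change of 2.08 (SE 0.152) with an adjusted p of 1.1e-08 (edgeR, Benjamini-Hochberg). Its receptor KIT had at most 10 counts per library. KITLG shares 80 exonic bases with AC024941.2.

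GDF15, a stress-induced ligand of the GFRA-like receptor GFRAL that signals with RET, held 19 and 15 counts without SNP, and 113 and 169 with it. Its level rose from 2.80 ± 0.189 to 18.1 ± 5.44 CPM (SD, n = 2 each), a log2 fold change of 2.68 (SE 0.296; adjusted p = 1.9e-06, edgeR, Benjamini-Hochberg). GFRAL itself, named after its counts were seen, had 1 count in control b and 0 in the other libraries. KITLG and GDF15 passed in every alternative in which they were tested, including the guanine-over-cytosine offsets, where the log2 fold changes were 1.80 and 3.04.

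BDNF, the ligand of TrkB, held 29 and 27 counts without SNP, and 58 and 96 with it. Both SNP values, 7.30 and 12.5 CPM, were above the 4.47 and 4.79 CPM of control, and SNP b was well above SNP a. The log2 fold change was 1.09 (SE 0.310; adjusted p = 0.0125, edgeR, Benjamini-Hochberg), and BDNF shares 701 exonic bases with its antisense gene BDNF-AS. The BDNF call was lost with DESeq2's Wald test, with the guanine-over-cytosine offsets (log2 fold change 0.82, adjusted p = 0.0951, edgeR) and without SNP b.

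IGF2, an insulin-like growth factor, fell from 45.0 ± 7.19 to 33.0 ± 2.68 CPM (SD, n = 2 each), at a log2 fold change of -0.45 and an adjusted p-value of 0.0288 (edgeR, Benjamini-Hochberg). It shares exonic bases with INS-IGF2 (1460) and with another gene ID of the same symbol (5144), so its reads may be divided. The IGF2 call was lost in 8 of 16 alternatives, among them DESeq2 and the exclusion of control a or SNP a, and the log2 fold change was 0.18 with the guanine-over-cytosine offsets. MDK and PTN, which encode the heparin-binding factors midkine and pleiotrophin, and PSPN, which encodes the RET ligand persephin, missed the threshold at 0.04, 0.13 and -0.06 on the log2 scale. The remaining ligands of ALK and RET are named after their counts were seen. NRTN, which encodes the GFRA2 ligand neurturin, held 18 and 24 counts without SNP, and 13 and 15 with it, and its log2 fold change of -0.96 (SE 0.459) did not pass (adjusted p = 0.132, edgeR, Benjamini-Hochberg). ARTN, which encodes the GFRA3 ligand artemin, held 10 to 19 counts per library, at 0.06 (SE 0.516; adjusted p = 0.951, edgeR). ALKAL1 had no count, ALKAL2 had 1 and 2 counts in the SNP libraries and 0 in control, and GDNF had 1 count in all.

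**Figure D4:**
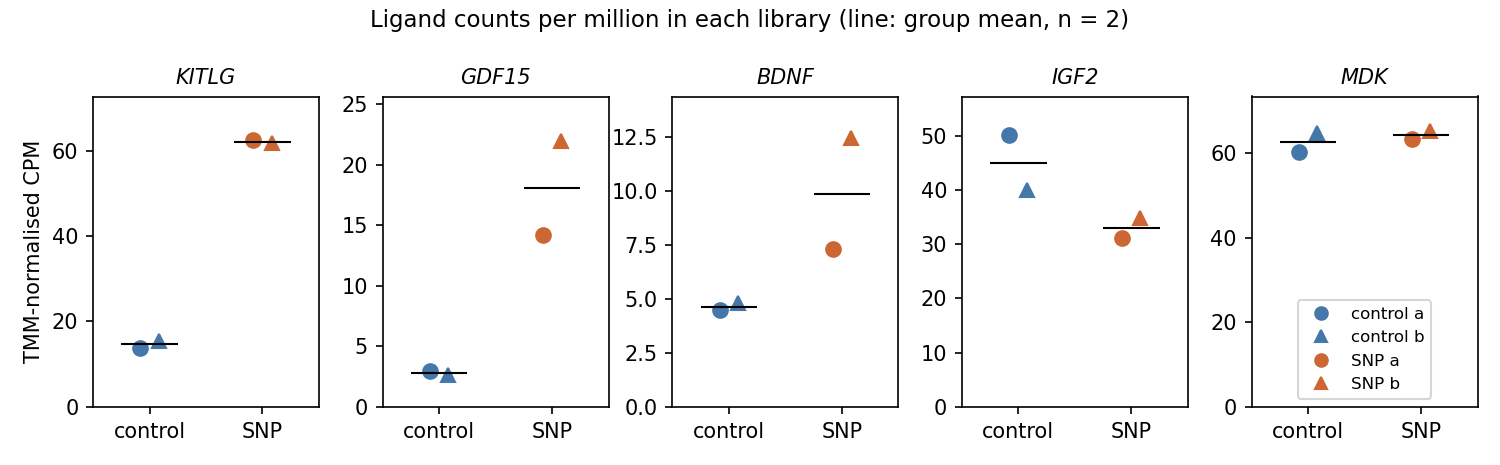
TMM-normalised CPM of 5 ligand genes in each library (axes from 0; circles replicate a, triangles replicate b, lines the group means of 2 libraries). KITLG stands at 62.1 CPM in SNP against 14.7 CPM in control libraries, and MDK is level between groups.

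Other growth factor receptors changed in both directions. Of 28 listed genes 21 were tested, 2 rose, 4 fell and 15 did not pass, beside 26.2% called over all genes. EGFR, the epidermal growth factor receptor, fell from 334 ± 19.6 to 185 ± 8.93 CPM (SD, n = 2 each; log2 fold change -0.85, adjusted p = 2.6e-06, edgeR, Benjamini-Hochberg). PDGFRB, a platelet-derived growth factor receptor, fell from 52.4 ± 4.01 to 28.0 ± 2.13 CPM (log2 fold change -0.91, adjusted p = 8.4e-05, edgeR). EGFR and PDGFRB passed in all alternatives in which they were tested, PDGFRB at -0.57 with the guanine-over-cytosine offsets. EGFR shares 186 exonic bases with EGFR-AS1, and NCAM1 shares 552 with NCAM1-AS1. INSRR, an orphan relative of the insulin receptor, and NCAM1, an adhesion molecule that can also bind GDNF, fell by 0.46 and 0.32 on the log2 scale. FGFR4, a fibroblast growth factor receptor, rose from 2.32 ± 0.231 to 6.06 ± 0.686 CPM (log2 fold change 1.38, adjusted p = 0.00883, edgeR). IGF2R, which carries IGF2 to lysosomes, rose from 282 ± 6.32 to 360 ± 15.6 CPM (log2 fold change 0.35, adjusted p = 0.00744, edgeR). INSRR had a log2 fold change of -0.08 with the guanine-over-cytosine offsets, and its call was also lost with DESeq2, with RPKM-implied totals and without control b or SNP a. The call of FGFR4 was lost with DESeq2 and without control a or SNP a, and that of IGF2R without control a.

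INSR, the insulin receptor, was just outside the threshold at a log2 fold change of -0.28 (adjusted p = 0.0524, edgeR, Benjamini-Hochberg). Further receptors with at least 5 CPM missed the threshold, at log2 values of -0.35 for ERBB4, -0.33 for TYRO3, -0.28 for MET, -0.19 for FGFR1, -0.18 for ERBB2, 0.01 for PDGFRA, 0.09 for MERTK, 0.15 for DDR2 and 0.18 for DDR1.

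Among 18 co-receptors, receptor phosphatases and partners, 15 were tested, 5 fell, 1 rose and 9 did not pass, beside 12.6% of all genes tested lower and 13.6% higher. MAGED1, which binds the p75 receptor, fell from 185 ± 22.7 to 107 ± 9.82 CPM (SD, n = 2 each; log2 fold change -0.79, adjusted p = 3.2e-05, edgeR, Benjamini-Hochberg). SORT1, which encodes sortilin, the partner of p75 for pro-neurotrophins, fell from 147 ± 0.0557 to 97.8 ± 2.77 CPM (log2 fold change -0.59, adjusted p = 2.7e-04, edgeR). SORL1, a sortilin relative, fell by 0.50 on the log2 scale. MAGED1, SORT1 and SORL1 passed in all 17 alternatives. ADAM17, a protease that sheds membrane receptors, rose by 0.32 on the log2 scale, but its value was 0.00 with the guanine-over-cytosine offsets and it shares 1323 exonic bases with IAH1. ADAM17 passed in 7 of 16 alternatives, and its call was lost without control a, control b or SNP a.

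Adaptors and effectors downstream of the receptors were divided. Of 50 listed genes 44 were tested, 9 rose, 7 fell and 28 did not pass, beside 26.2% called over all genes. Their median log2 fold change was 0.006. The largest rises were in HRAS, a RAS GTPase, at 0.86, in SH2B1, a receptor adaptor, at 0.60 and in FRS2, an adaptor of Trk, RET and FGF receptors, at 0.51. The largest falls were in SH2B2, a relative of SH2B1, at -0.95, in MAP2K2, a kinase that activates ERK, at -0.72 and in IRS2, an adaptor of the insulin and IGF1 receptors, at -0.62. The adjusted p-values of these 6 genes lay between 9.9e-05 for IRS2 and 0.00584 for HRAS (edgeR, Benjamini-Hochberg). The SH2B2 call was lost with the guanine-over-cytosine offsets (adjusted p = 0.0751, edgeR), that of HRAS without control a and that of FRS2 without control b. SH2B1 stood at 0.92, MAP2K2 at -0.33 and IRS2 at -0.29 with the same offsets, all past the threshold.

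**Figure D5:**
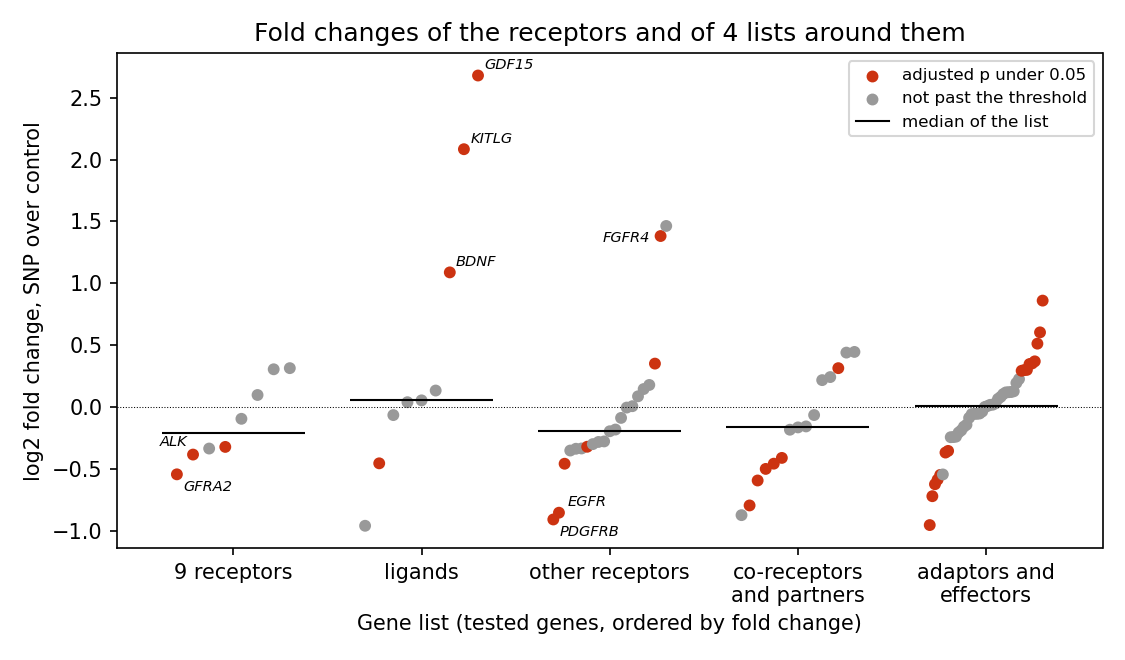
Log2 fold change (SNP over control) of each tested gene in the set of 9 receptors and in 4 lists around it, ordered within each list (red, adjusted p under 0.05; grey, not past the threshold; line, median of the list). GDF15, KITLG and BDNF stand highest among the ligands, and EGFR and PDGFRB lowest among the other receptors.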

How the data were processed

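RNA-seq gene tables came from 2 control and 2 SNP libraries, grouped by sample labels. Per the labels, reads were 75 bases long; the submitters' processing notes name GRCh38, and the aligner and counter are not given in the sources used here. The deposited expression column holds whole-number read counts per gene without normalization. The deposited TPM column is scaled per gene length to a fixed total, and the deposited RPKM column per kilobase and by a read total larger than the summed counts, per the file headers and the values.

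Counts were tested with edgeR 4.0.16 in R 4.3.3: filterByExpr (minimum count 10, total 15), TMM scaling, quasi-likelihood test of SNP against control without covariates, Benjamini-Hochberg adjustment over all 14759 genes tested and a threshold of 0.05. CPM values are TMM-normalised, and standard errors come from the fold change and the F statistic. Gene positions, exons and base composition came from GENCODE 29, which holds 57980 of the 58243 gene IDs. Exon overlaps ignored strand, since strand use in counting is not given in the sources used here.

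The alternatives were other filters (none, mean count of 50), other scalings (DESeq2 size factors, total counts, RPKM-implied totals), DESeq2 1.42.0 with its independent filtering, voom in limma 3.58.1, the replicate letter as a block, lowess offsets (span 0.5, 3 iterations) on gene length and GC, with and without guanine-over-cytosine content, genes without exonic overlap, a threshold of 0.01 for counts of calls, and leaving out each library. The guanine-over-cytosine offsets used guanine minus cytosine content and not a ratio. With a library left out, the lone sample of its group was assumed to vary like the other group.

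The receptors, the lists (ligands, other receptors, co-receptors and partners, adaptors and effectors, and the cell markers) and the naming rule were chosen with earlier results of these data known. The rule named every receptor of the set. From each list it took the 3 largest rises and falls past the threshold with a mean of at least 2 CPM, and any ligand or other receptor with at least 5 CPM, of which 1 is not reported here. For ALK and RET it took the 2 nearest genes by library pattern, on log2 CPM with a pseudocount of 0.5. The scripts were tested on simulated counts: 92% of 200 genes given a simulated log2 change of 1 and a mean count above 30 were called in a run of 14736 tested genes. The simulation used the same dispersion for every gene. Its change was larger than that of any tested receptor, so the 92% does not cover changes of their size.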

Additional observations from a re-analysis of the deposited data

How the results depend on the processing

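The 8 tested receptors were recomputed under 15 to 17 alternatives each, and KIT is not among them. ALK lost its call with RPKM-implied totals (log2 fold change -0.31), DESeq2 (-0.38) and guanine-over-cytosine offsets (-0.24), and lay between -0.62 and -0.18 when single libraries were left out. RET lost it with RPKM-implied totals (-0.25) and guanine-over-cytosine offsets (-0.11 without and -0.11 with the replicate block), and lay between -0.42 and -0.22 with libraries left out. GFRA2 lost it with DESeq2 (-0.54) and guanine-over-cytosine offsets (-0.27 without and -0.27 with the block), and lay between -0.73 and -0.34. With the guanine-over-cytosine offsets IGF1R turned to 0.0884 (0.0875 with the block) and GFRA3 to 0.26 (0.26 with the block). With libraries left out NTRK3 ranged from -0.019 to 0.59, NGFR from -0.27 to 0.54, IGF1R from -0.18 to -0.01, GFRA3 from -0.51 to -0.15 and NTRK2 from 0.19 to 0.42. The count of 3 receptors became 1 with RPKM-implied totals, 1 with DESeq2, 0 with guanine-over-cytosine offsets, 1 (ALK, at -0.24) with these and the block, 0 at an adjusted p under 0.01, and 0 to 3 with libraries left out (0 without control b, 1 without SNP a). The 3861 genes called overall became 2415 with DESeq2, 2018 among genes without exonic overlap (fewer genes tested), 2224 at 0.01, and 2447 to 4144 with libraries left out. The 4 ligands became 2 with DESeq2, 1 without overlapping genes and 3 to 4 with libraries left out. The 6 other receptors became 3 to 9 with libraries left out, and the 6 co-receptors and partners became 3 with RPKM-implied totals, 3 with guanine-over-cytosine offsets and 4 to 8 with libraries left out. The 16 adaptors became 9 with DESeq2, 9 without overlapping genes and 6 to 14 with libraries left out. Other than where fewer genes or libraries entered, the cause was not tested.

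Whether the replicate letters pair libraries across the groups was not settled. The deviations of a from b in the control and SNP groups correlated at 0.0429 over genes, and 2 pairs are too few to decide. With the replicate block, 4487 genes were called, against 3861 without it, and ALK (-0.39), RET (-0.32) and GFRA2 (-0.54) still passed. The adjusted p-values moved from 0.0242 to 4.4e-04 for ALK, from 0.0156 to 0.00293 for RET and from 0.0173 to 0.00925 for GFRA2 (edgeR, Benjamini-Hochberg). KIT, GFRA3, NGFR and NTRK3 had at most 97 counts in any library, and the SE of the 3 tested ones lay between 0.268 and 0.441 on the log2 scale.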
